A study of Mus musculus with 8 samples.

Results

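K14Snail epidermal cells were set against wild type cells in the negative fractions of a magnetic sort, that is, in the cells that an antibody to CD34 or to Mts24 did not hold back. The comparison uses 4 of the 8 arrays of the series. These are K14Snail CD34 negative, K14Snail Mts24 negative, wild type CD34 negative and wild type Mts24 negative, with 1 array each. They were chosen by their labels alone, with each K14Snail array paired with the wild type array of the same sorting marker. All mice were on the CD1 background, 8 weeks old and of both sexes, and the cells came from back skin digested overnight with trypsin. K14Snail mice carry Snail under the keratin 14 promoter, which works in basal keratinocytes and the outer layer of the hair follicle; the wild type mice carry no transgene. Each CD34 array held RNA pooled from 11 mice and each Mts24 array RNA pooled from 9 mice. The male to female ratio of the pools and whether the transgenic mice come from more than 1 founder line are not given in the sources used here.

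Snail, the product of Snai1, is a zinc finger repressor that binds short DNA motifs called E-boxes in the promoters of epithelial genes. It is best known for driving epithelial to mesenchymal transition, in which epithelial cells loosen their junctions, change their matrix and become motile, and E-cadherin is its classic target. Keratinocytes normally make little of it, while its relative Slug, the product of Snai2, is made in basal epidermis and acts in wound closure. CD34 marks cells of the hair follicle bulge, and the Mts24 antibody recognises an antigen on the Plet1 protein in the upper follicle, so the negative fractions hold mostly other cells of the epidermis.

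The markers matched the labels of the arrays. Snai1 (probe set 10478884) read 11.04 and 10.84 in the K14Snail CD34 negative and Mts24 negative arrays, against 7.99 and 7.86 in the wild type arrays; these and all levels below are the deposited log2 values, on which a difference of 1 is 2-fold. Both K14Snail arrays lay far above both wild type arrays, and the array does not separate transgene from endogenous Snai1. Cd34 read 6.27 in the K14Snail and 6.12 in the wild type CD34 negative array, against 13.29 and 13.57 in the CD34 positive arrays of the 2 genotypes. Plet1 read 9.16 in the K14Snail and 9.91 in the wild type Mts24 negative array, against 12.64 and 12.88 in the Mts24 positive arrays. Each marker was thus lowest in its own negative fraction. In the K14Snail and wild type Mts24 negative arrays Cd34 read 10.51 and 10.03, below the 11.56 and 12.12 of the Mts24 positive arrays. Plet1 read 11.22 and 11.15 in the K14Snail and wild type CD34 negative arrays, against 11.74 and 11.82 in the CD34 positive arrays. Krt14 read 13.79 and 13.63 in K14Snail cells, against 13.68 and 13.28 in wild type cells, so the gene whose promoter drives the transgene was measured at a high level in all 4 arrays. All 10 keratinocyte markers were tested and 0 passed in limma, with 3 at an unadjusted p under 0.05, which 1576 of all 10167 tested genes (15.5%) reached, and a median difference of 0.02.

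Differences are K14Snail minus wild type, taken within each marker and averaged over the CD34 pair and the Mts24 pair, with limma's moderated standard error (SE) after ±; each side has 2 arrays throughout. Genes were called at an adjusted p under 0.05 after Benjamini-Hochberg adjustment over the 10167 genes in which at least 2 of the 4 arrays reached 7.67. Of these, 405 genes were called, which is 3.98% of those tested: 223 were higher (2.19%) and 182 lower (1.79%) in K14Snail cells. Counts of called list members below are to be read against these shares. Counts of 1 sign are to be read against the 5282 positive and 4885 negative differences among all tested genes. All 405 had the same sign in both pairs, against 59.8% of all tested genes, which follows from the test, since its spread includes the disagreement of the pairs. Where K14Snail and wild type arrays of a called gene are said below not to overlap, that is not independent of the call. The share of such genes among all tested genes was not counted. The smallest called difference was 0.40 in size, and 68 called genes differed at least 2-fold on average, 35 of them higher and 33 lower. The number of calls depended on how the spread was estimated: with the spread taken over all 8 arrays 12 genes were called (0.118%), and without the marker in the model 1 gene, Snai1. A p-value here weighs a difference against a spread that joins the gene's own pair disagreement with that of all tested genes. The gene's own part has 1 degree of freedom and the shared part 7.16, so the spread is mostly the shared one. Such a p-value measures no spread between replicate pools, since each fraction of each genotype is 1 pool. The 12 genes called in the 4-array and in the 8-array fit were Snai1, Sprr1b, Aff2, Bgn, Ehf and Atp12a, all higher, and Snai2, Fgd4, Pkia, Stk26, Arhgef16 and Aldh1a7, all lower; all other calls below rest on the 4-array fit.

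The 4 arrays correlated closely. Across all 19938 genes, before the filter, the Pearson correlation of levels was 0.994 between K14Snail and wild type within each marker. Between the CD34 and Mts24 negative arrays within each genotype it was 0.992. The pair differences had an SD over the tested genes of 0.26 for CD34 and 0.25 for Mts24, and correlated at 0.54 across these genes, which are not independent replicates. A 2-fold difference was passed by 82 genes in the CD34 negative pair and 70 in the Mts24 negative pair, against 433 and 172 genes in the CD34 positive and Mts24 positive pairs. At least 2-fold in both negative pairs, with no test, stood 37 genes (0.364%), of which 16 were higher and 21 lower.

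**Figure D1:**
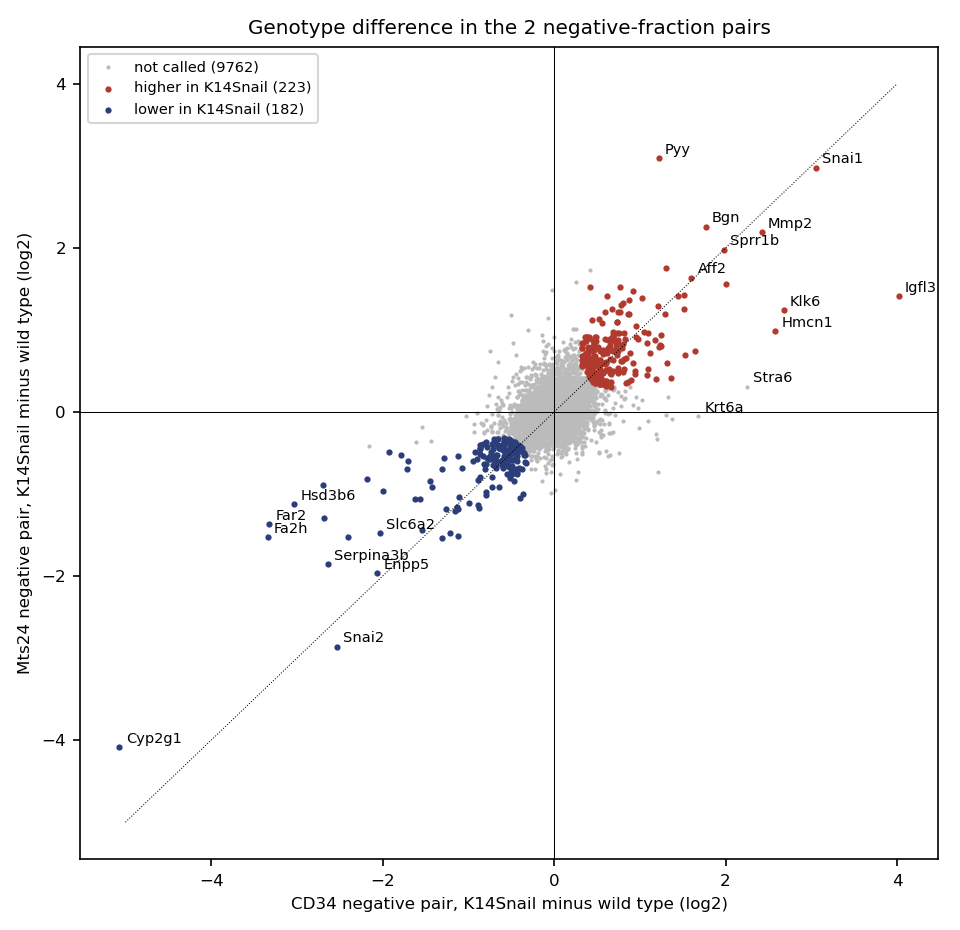
Each point is 1 of the 10167 tested genes, with the K14Snail minus wild type difference (log2) in the CD34 negative pair on the horizontal axis and in the Mts24 negative pair on the vertical axis; the dotted line marks equal differences. Called genes, 223 higher and 182 lower in limma, lie in the quadrants where both pairs have the same sign, with Snai1 and Snai2 near the dotted line Igfl3 below it and Cyp2g1 and Fa2h above it.

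Among the factors of epithelial to mesenchymal transition, Snai1 rose and Snai2 fell, and no other passed. The Snai1 difference was 3.02 ± 0.09, an 8.09-fold higher level (limma adjusted p = 4.94e-06), and was nearly equal in the pairs, 3.05 for CD34 and 2.98 for Mts24. Snai2 (probe set 10433776) read 8.18 and 7.11 in the K14Snail CD34 and Mts24 negative arrays, against 10.71 and 9.96 in the wild type arrays. Both K14Snail arrays were below both wild type arrays, and the difference was -2.70 ± 0.11, 6.48-fold lower (limma adjusted p = 2.18e-05). Of the 11 factors listed, 4 were expressed well enough to be tested. The other 7 read under 7.67 in at least 3 arrays, among them Zeb1 (7.43 and 7.58 in K14Snail cells, 7.43 and 7.74 in wild type cells), Twist1 (6.88 and 6.82 in K14Snail cells, 6.79 and 7.03 in wild type cells) and Zeb2 (6.22 and 6.60 in K14Snail cells, 6.28 and 6.39 in wild type cells). Zeb1, Zeb2 and Twist1 are repressors that act beside Snail in this transition, and the K14Snail and wild type levels of each overlapped or lay within 0.21 of each other in both pairs.

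Of 12 tested effectors of the transition 4 rose and 0 fell (33.3% called, against 3.98% of all tested genes). Their median difference was 0.35, against 0.01 over all tested genes. Mmp2, a gelatinase that cuts basement membrane collagen, read 11.95 and 11.54 in K14Snail cells, against 9.53 and 9.36 in wild type cells. The groups did not overlap, and Mmp2 rose 4.93-fold (2.30 ± 0.10, limma adjusted p = 2.18e-05). Tnc (tenascin C) rose by 1.03 ± 0.12, Itga5, the integrin subunit that binds fibronectin, by 1.01 ± 0.09, and Fn1, fibronectin itself, by 0.97 ± 0.21, with limma adjusted p-values of 0.00319, 0.00111 and 0.0447. Fn1 was uneven, with 0.42 in the CD34 pair and 1.52 in the Mts24 pair. The wild type arrays of Tnc and Itga5 all lay under 7.67, where the size of a difference is uncertain because the files hold no measure of background. Tnc and Itga5 entered the test only through their K14Snail arrays, so the filter favoured their part in the called share above.

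The genes most used to score the transition did not pass. Vim, which encodes the mesenchymal filament vimentin, read 12.12 and 12.47 in K14Snail cells, against 12.40 and 12.71 in wild type cells, a difference of -0.26 ± 0.09 (limma adjusted p = 0.193). Cdh1, which encodes E-cadherin, read 12.63 and 12.66 in K14Snail cells, against 12.58 and 12.63 in wild type cells (0.04 ± 0.09, limma adjusted p = 0.921). Its 4 values were nearly equal. Cdh2, which encodes N-cadherin, read 5.20 and 5.31 in K14Snail cells, against 5.18 and 5.42 in wild type cells, and was too low to be tested. Cdh3, which encodes P-cadherin of basal keratinocytes, had a difference of 0.31 ± 0.10 that missed the threshold (limma adjusted p = 0.179).

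Several matrix genes rose. Of 14 tested proteoglycans and matrix glycoproteins 7 rose and 1 fell (57.1% called, against 3.98% of all tested genes). The list's median difference was 0.50. All 14 had the same sign in both pairs, against 59.8% of all tested genes. Bgn encodes biglycan, a small proteoglycan of the extracellular matrix. It read 8.94 and 9.29 in K14Snail cells, against 7.17 and 7.03 in wild type cells, a rise of 2.02 ± 0.12 (limma adjusted p = 1.69e-04) from wild type levels under 7.67. Bgn and Tnc, both in this list, entered the test only through their K14Snail arrays, so the filter favoured their part in the called share. Hmcn1, which encodes hemicentin, a very large matrix protein, read 10.01 and 8.93 in K14Snail cells, against 7.44 and 7.94 in wild type cells, a rise of 1.78 ± 0.29 that was 2.58 in the CD34 pair and 0.99 in the Mts24 pair. The array carries 77 probe sets for Hmcn1, and all 77 were higher on average in K14Snail cells, by 0.09 to 1.82. Thbs1, which encodes the adhesive glycoprotein thrombospondin, rose by 0.79 ± 0.09, Hspg2, which encodes the basement membrane proteoglycan perlecan, by 0.64 ± 0.10, and Fbln1, which encodes fibulin, by 0.57 ± 0.09. Postn, which encodes the matrix protein periostin, fell. It read 10.22 and 11.34 in K14Snail cells, against 12.14 and 11.82 in wild type cells (-1.20 ± 0.27, limma adjusted p = 0.0474), with -1.92 in the CD34 pair and -0.49 in the Mts24 pair.

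The called share was 11.8% among collagens, 36.4% among metalloproteinases and inhibitors and 20% among integrins and laminins, against 3.98% of all tested genes. Of 17 tested collagens, Col6a1 (1.00 ± 0.12) and Col12a1 (0.47 ± 0.09) rose, while the fibrillar collagen genes Col1a1 and Col1a2 both had a difference of 0.06 and did not pass; the list's median was 0.13. Among 11 metalloproteinases and inhibitors Mmp2, the sheddase Adam8 (0.89 ± 0.09) and the epidermal Mmp28 (0.46 ± 0.09) rose, and Timp3, an inhibitor of these proteases, fell by 0.53 with an SE of 0.09. Mmp14, whose product activates the Mmp2 protein, had a difference of 0.39 ± 0.10 (limma adjusted p = 0.0818). Among 15 integrins and laminins Itga5 and Lamb3 (0.53 ± 0.10), a subunit of the laminin under basal keratinocytes, rose, and Lama1 fell (-0.62 ± 0.09).

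Of 29 tested genes of cell junctions and polarity 0 rose and 2 fell (6.9%) in limma, and the median difference was -0.03. An unadjusted p under 0.05 was reached by 8 of them (27.6%), against 15.5% of all tested genes. Both that fell encode polarity proteins. Crb3, the epithelial Crumbs protein of the apical membrane, read 8.74 and 8.77 in K14Snail cells, against 9.31 and 9.38 in wild type cells (-0.59 ± 0.09, limma adjusted p = 0.0108). Pard6b, a member of the Par complex, read 9.27 and 9.20 in K14Snail cells, against 9.71 and 9.80 in wild type cells (-0.52 ± 0.09, limma adjusted p = 0.0212). The K14Snail arrays were below both wild type arrays for each. The other 27 genes, which include the desmosomal Dsp (0.01), the claudin Cldn1 (0.00) and Ocln, which encodes occludin (-0.25), did not pass. Among 15 epithelial identity factors, Ehf rose and the others did not pass. Ehf encodes an epithelial transcription factor of the ETS family and read 10.32 and 9.86 in K14Snail cells, against 9.03 and 8.67 in wild type cells (1.24 ± 0.09, limma adjusted p = 3.86e-04).

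Snail binds the E-box CAGGTG, which reads CACCTG on the other strand, so the 250 bases before each annotated start were searched for either form, counting a gene when any of its windows held it. At least 1 match was found in 52 of the 143 genes called lower that have a promoter entry (36.4%), in 25 of the 171 called higher (14.6%), in 1495 of all 8212 tested genes (18.2%) and in 5657 of the 32851 promoter windows (17.2%). Genes with at least 2 matches made up 12.6% of those called lower, 2.92% of those called higher and 2.30% of all tested genes. Median GC content was 60.4% in the lower, 60.0% in the higher and 61.6% in all tested genes, and genes had on average 1.31, 1.27 and 1.28 windows in the same order. The related E-boxes CAGCTG (16.1% of lower, 17.5% of higher, 13.9% of all tested) and CACGTG (15.4%, 8.77% and 10.5%) read the same on either strand, cannot overlap the searched form and were counted in the same windows. These shares describe letters in a window, not binding, and no test was made of them. With genes picked by other rules, the lower and higher shares were 32.7% and 14.9% at an unadjusted p under 0.05 over all 8 arrays, 43.2% and 15.2% at 1.5-fold in both negative pairs, and 31.6% and 12.0% at 1.5-fold in both positive pairs.

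**Figure D2:**
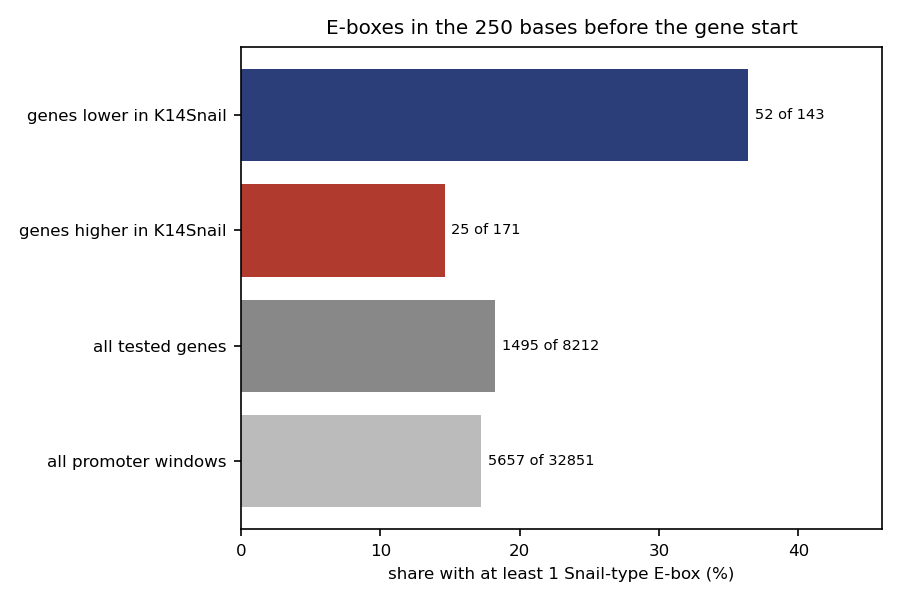
Horizontal bars show the share of genes, in percent, with at least 1 CAGGTG or CACCTG in the 250 bases before the gene start, for genes called lower, genes called higher, all tested genes and all promoter windows. The bar of the genes called lower reaches 36.4%, and the others lie between 14.6% and 18.2%.

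The promoters of 6 genes called lower and of Snai1 itself show where the matches lie. Crb3 and Pard6b are the members of the junction and polarity list that fell; Arhgef16 and Fgd4, an exchange factor for Cdc42, were lower in the 8-array fit too; Lsr, which encodes a tricellular junction protein, and Tmem30b, which encodes a subunit of lipid flippases, were chosen after their values were seen because they hold 4 matches each. The window with the most matches is shown, of 2 windows for Crb3, 3 for Fgd4 and 1 for each other gene. Of the tested junction and polarity genes with a promoter entry, 8 of 17 (47.1%) hold a match, and 2 of them fell. The sequences are from RefSeq on build GRCm38.p6, printed 5′ to 3′ on the strand of the gene up to the last base before the start. Capitals mark CAGGTG or CACCTG.
Crb3, chr17:57061951-57062200, plus strand: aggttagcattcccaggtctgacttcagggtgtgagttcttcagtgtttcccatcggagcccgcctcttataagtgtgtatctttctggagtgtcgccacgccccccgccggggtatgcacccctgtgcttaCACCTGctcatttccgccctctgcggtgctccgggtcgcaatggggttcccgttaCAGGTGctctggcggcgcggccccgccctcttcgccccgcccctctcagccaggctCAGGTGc
Pard6b, chr2:168080754-168081003, plus strand: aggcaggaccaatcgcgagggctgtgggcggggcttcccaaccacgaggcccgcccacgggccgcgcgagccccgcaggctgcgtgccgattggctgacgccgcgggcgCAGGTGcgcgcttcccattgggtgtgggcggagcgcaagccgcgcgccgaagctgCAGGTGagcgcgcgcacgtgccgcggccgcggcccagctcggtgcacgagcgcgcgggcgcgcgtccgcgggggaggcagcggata
Lsr, chr7:30973470-30973719, minus strand: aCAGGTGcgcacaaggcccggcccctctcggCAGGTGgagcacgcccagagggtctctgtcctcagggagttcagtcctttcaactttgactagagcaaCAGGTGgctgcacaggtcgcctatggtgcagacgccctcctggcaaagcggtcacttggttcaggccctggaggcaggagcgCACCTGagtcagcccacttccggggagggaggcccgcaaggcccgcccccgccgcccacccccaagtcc
Tmem30b, chr12:73546396-73546645, minus strand: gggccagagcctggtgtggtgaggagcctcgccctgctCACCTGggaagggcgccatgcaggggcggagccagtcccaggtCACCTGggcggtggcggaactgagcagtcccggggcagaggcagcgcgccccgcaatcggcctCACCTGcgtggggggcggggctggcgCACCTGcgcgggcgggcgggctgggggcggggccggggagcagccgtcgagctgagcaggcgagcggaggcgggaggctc
Arhgef16, chr4:154299896-154300145, minus strand: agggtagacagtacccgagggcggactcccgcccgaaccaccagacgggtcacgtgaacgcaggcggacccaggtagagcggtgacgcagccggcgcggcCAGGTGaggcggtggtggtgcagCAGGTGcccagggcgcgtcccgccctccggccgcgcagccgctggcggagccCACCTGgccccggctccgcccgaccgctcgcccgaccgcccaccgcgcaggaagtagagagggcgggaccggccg
Fgd4, chr16:16599979-16600228, minus strand: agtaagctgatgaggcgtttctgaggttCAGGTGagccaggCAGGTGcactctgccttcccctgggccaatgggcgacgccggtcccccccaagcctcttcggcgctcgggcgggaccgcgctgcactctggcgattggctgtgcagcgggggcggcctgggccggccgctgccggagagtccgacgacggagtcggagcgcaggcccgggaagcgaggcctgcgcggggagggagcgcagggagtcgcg
Snai1, chr2:167537945-167538194, plus strand: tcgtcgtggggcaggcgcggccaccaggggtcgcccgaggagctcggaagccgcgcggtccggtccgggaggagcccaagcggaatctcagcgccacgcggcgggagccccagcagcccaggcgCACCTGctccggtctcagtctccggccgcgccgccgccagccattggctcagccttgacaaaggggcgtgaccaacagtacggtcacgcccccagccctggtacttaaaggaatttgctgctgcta

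Counted from the start, with the base just before it as -1, the matches in the Crb3 window begin at -118, -63 and -7, and those in the Pard6b window at -141 and -86. Arhgef16 read 7.80 and 7.58 in K14Snail cells, against 9.05 and 8.76 in wild type cells (-1.22 ± 0.09, limma adjusted p = 3.86e-04), and holds 3 matches. Fgd4 read 6.21 and 6.27 in K14Snail cells, against 7.76 and 7.70 in wild type cells (-1.49 ± 0.09), so its K14Snail levels lie under 7.67 and its 2 matches begin at -222 and -209. Lsr read 10.35 and 10.88 in K14Snail cells, against 11.05 and 11.33 in wild type cells (-0.58 ± 0.10). Tmem30b read 9.39 and 9.54 in K14Snail cells, against 9.86 and 9.92 in wild type cells (-0.43 ± 0.09). For each of these genes both K14Snail arrays were below both wild type arrays, which is no further evidence, since the genes were picked as called lower. The Snai1 window holds 1 match, at -126.

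Of 12 tested genes that keratinocytes switch on in wounded or activated epidermis 6 rose and 0 fell (50% called, against 3.98% of all tested genes). On the array 11 more were too low to be tested. All 12 differences were positive, as were 5282 of all 10167 tested. Their median was 0.72, with 1.08 in the CD34 pair and 0.49 in the Mts24 pair. Of 27 tested suprabasal and cornified envelope genes 3 rose, with a median of 0.07, and of 16 basal genes 2 rose and 1 fell, with a median of 0.21. Sprr1b, a small proline-rich protein of the stressed cornified envelope, read 11.13 and 11.20 in K14Snail cells, against 9.15 and 9.22 in wild type cells, a rise of 1.98 ± 0.09 (limma adjusted p = 2.42e-05) that was the same in both pairs. Klk6, a secreted serine protease of the kallikrein family, read 10.50 and 9.24 in K14Snail cells, against 7.83 and 8.00 in wild type cells (1.96 ± 0.27). Stfa3, an inhibitor of cysteine proteases, read 9.69 and 8.06 in K14Snail cells, against 7.68 and 6.49 in wild type cells (1.79 ± 0.12). In none of these genes, which were picked as called higher, did a K14Snail array overlap a wild type array.

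The wound keratins were uneven between the pairs. Krt16 rose (0.96 ± 0.15, with 1.32 in the CD34 pair and 0.60 in the Mts24 pair), Krt6b rose (0.62 ± 0.12), and Krt6a had 1.68 in the CD34 pair and -0.05 in the Mts24 pair and did not pass (limma adjusted p = 0.258). Krt17 had a difference of 0.14 and did not pass. S100a8, an alarmin of inflamed epidermis, was too low to be tested, at 5.93 and 5.62 in K14Snail cells, against 5.60 and 5.63 in wild type cells. The small proline-rich, stefin and keratin 6 genes have close paralogues that can share probe signal. Among suprabasal genes the transglutaminases Tgm3 (0.86 ± 0.09) and Tgm5 (0.62 ± 0.10), which cross-link the envelope, and Calml3 (0.43 ± 0.09) rose. Klk10 (0.82 ± 0.13) and Klk13 (0.76 ± 0.09) rose beside Klk6, and Slurp1 (0.74 ± 0.10) and Slurp2 (1.02 ± 0.16), small secreted proteins of differentiating keratinocytes that were picked after their values were seen, rose too.

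**Figure D3:**
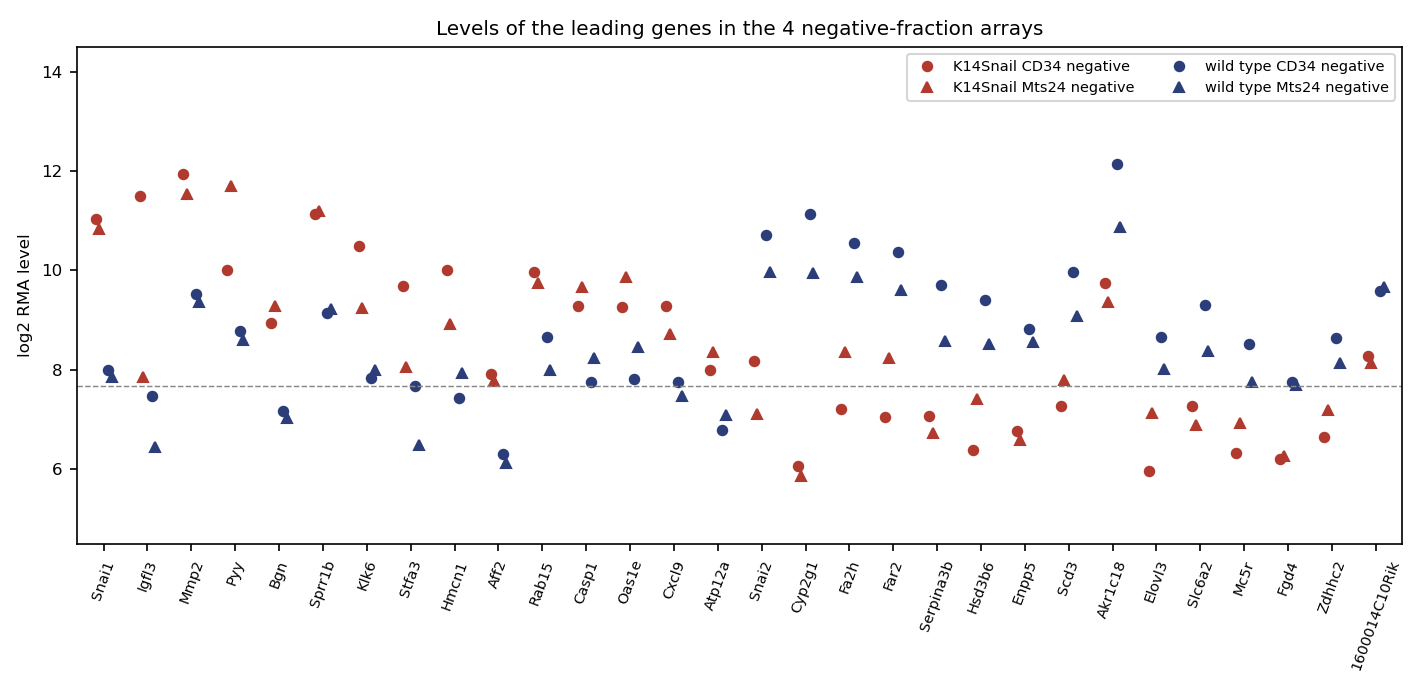
Each column is 1 named gene and each symbol 1 array, with the deposited log2 level on the vertical axis; K14Snail arrays stand left of wild type arrays in each column, and the dashed line marks 7.67. Snai1, Mmp2 and Sprr1b show both K14Snail arrays well above both wild type arrays, Snai2 and Cyp2g1 show them well below, and Igfl3 and Pyy have K14Snail arrays that lie far apart.

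The other leading genes that rose come from several families. Igfl3, a secreted member of the insulin-like growth factor-like family, read 11.49 and 7.86 in the K14Snail CD34 and Mts24 negative arrays, against 7.47 and 6.44 in wild type cells (2.72 ± 0.46, limma adjusted p = 0.0167). Its differences were 4.02 in the CD34 pair and 1.41 in the Mts24 pair, the largest disagreement in that direction among tested genes. Pyy, which encodes peptide YY, a gut hormone, disagreed the other way. It read 10.00 and 11.71 in K14Snail cells, against 8.79 and 8.60 in wild type cells (2.16 ± 0.34, limma adjusted p = 0.0131). Of the other members of the neuropeptide and catecholamine list that were tested, Slc6a2, the noradrenaline transporter, fell (-1.76 ± 0.13) and Npy1r, a receptor of neuropeptide Y that also binds peptide YY, fell too, with -1.31 in the CD34 pair and -0.69 in the Mts24 pair. Aff2, which encodes a nuclear protein of the AF4 family, read 7.91 and 7.77 in K14Snail cells, against 6.31 and 6.13 in wild type cells (1.62 ± 0.09, limma adjusted p = 1.00e-04). Rab15, a small GTPase of endosomes, rose by 1.53 ± 0.12, and Atp12a, a proton and potassium pump, by 1.25 ± 0.09. Igfl3, Aff2 and Atp12a lay under 7.67 in both wild type arrays and entered the test only through their K14Snail arrays. Slc6a2 lay under 7.67 in both K14Snail arrays and entered through its wild type arrays. The sizes of these differences are therefore uncertain.

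Part of the interferon response was higher. Of 16 tested genes 5 rose and 0 fell (31.2% called, against 3.98% of all tested genes), and 14 genes on the array were too low to be tested. The median was 0.29, with 0.46 in the CD34 pair and 0.16 in the Mts24 pair, so the shift was uneven. Cxcl9, a chemokine that draws activated T cells, read 9.28 and 8.73 in K14Snail cells, against 7.76 and 7.48 in wild type cells (1.38 ± 0.10, limma adjusted p = 3.86e-04). Oasl2, a member of the oligoadenylate synthetase-like family, rose by 1.19 ± 0.18, the RNA sensor Ddx58 by 0.94 ± 0.09, Parp14 by 0.71 ± 0.09 and Oas1a by 0.46 ± 0.10. Irf7 (0.54), a master regulator of the response, and Usp18 (-0.02), one of its usual targets, did not pass. Oas1e, outside that list and a close paralogue of Oas1a, was higher by 1.43 ± 0.09. Casp1, the inflammasome protease that matures interleukin 1β, read 9.29 and 9.66 in K14Snail cells, against 7.76 and 8.23 in wild type cells, and rose by 1.48 ± 0.09 (limma adjusted p = 1.69e-04). Its neighbour and relative Casp4, picked after its value was seen, rose by 1.03 ± 0.09.

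Cytokines moved in single genes (14.3% called, against 3.98% of all tested genes). Of 14 tested, Ccl2, a chemokine for monocytes, rose by 1.03 ± 0.12, and Il34, a keratinocyte cytokine on which Langerhans cells depend, read 10.66 and 10.84 in K14Snail cells, against 11.42 and 11.41 in wild type cells, and fell (-0.67 ± 0.09, limma adjusted p = 0.00823). Interleukin 1β itself was too low to be tested, with Il1b at 5.84 and 5.82 in K14Snail cells, against 5.70 and 5.92 in wild type cells. Kitl, which encodes the stem cell factor that melanocytes need and was picked after its value was seen, read 7.89 and 7.93 in K14Snail cells, against 6.86 and 6.54 in wild type cells (1.21 ± 0.11). These wild type levels lie under 7.67, so Kitl entered the test only through its K14Snail arrays. The 6 tested melanocyte markers had a median of 0.22, and 0 passed in limma, with 3 at an unadjusted p under 0.05; Tyrp1 came nearest (1.07, adjusted p = 0.0542).

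Of the 15 genes with the largest falls, 7 belong to the list of the sebaceous gland, the lipid-secreting gland of the hair follicle. Of 25 tested genes of the gland and of lipid synthesis 7 fell and 0 rose (28% called, against 3.98% of all tested genes), with a median of -0.15. Cyp2g1, a cytochrome P450, read 6.06 and 5.87 in K14Snail cells, against 11.13 and 9.95 in wild type cells. It fell 23.9-fold (-4.58 ± 0.19, limma adjusted p = 2.18e-05), with K14Snail levels under 7.67. Fa2h, which hydroxylates fatty acids, read 7.22 and 8.35 in K14Snail cells, against 10.56 and 9.87 in wild type cells (-2.43 ± 0.33). Far2, which makes the fatty alcohols of wax esters, read 7.04 and 8.24 in K14Snail cells, against 10.37 and 9.60 in wild type cells (-2.34 ± 0.35). Hsd3b6, a steroid dehydrogenase (-2.07 ± 0.35), Scd3, a fatty acid desaturase of sebocytes (-1.98 ± 0.26), Elovl3, a fatty acid elongase (-1.79 ± 0.33), and Mc5r, the melanocortin receptor of sebocytes (-1.50 ± 0.25), fell as well. Like Cyp2g1, Hsd3b6, Elovl3 and Mc5r read under 7.67 in both K14Snail arrays. Each of these genes, Cyp2g1 included, entered the test only through its wild type arrays, so the filter favoured their part in the called share. Whether a bulk sample holds fewer cells of a type or less RNA per cell cannot be told apart.

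In each of these 7 genes the fall was larger in the CD34 pair. Fa2h fell by 3.34 in the CD34 pair and by 1.52 in the Mts24 pair, and Elovl3 by 2.69 and by 0.89. The K14Snail CD34 negative array was the lowest of the 4 in 6 of the genes and the K14Snail Mts24 negative array in Cyp2g1. Far2, Hsd3b6, Fa2h and Elovl3 are among the 5 genes whose pairs disagreed most in that direction. The general enzymes of fatty acid synthesis did not pass: Scd1 had -0.19, Fasn -0.16, Acaca -0.01 and Acly -0.12. Pparg and 5 more listed genes were too low to be tested. For cholesterol synthesis all 16 tested genes had a negative difference, between -0.45 and -0.05, but 0 passed in limma; 6 (37.5%) had an unadjusted p under 0.05, against 15.5% of all tested genes. Other leading genes that fell were Akr1c18, a steroid reductase (-1.96 ± 0.18), Serpina3b (-2.24 ± 0.16), whose paralogues can share probe signal, Enpp5 (-2.01 ± 0.09), the palmitoyltransferase Zdhhc2 (-1.48 ± 0.20) and 1600014C10Rik (-1.42 ± 0.10). Of these, Serpina3b, Enpp5 and Zdhhc2 read under 7.67 in both K14Snail arrays and entered the test only through their wild type arrays.

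Of 17 tested genes of glycolysis and the hypoxia response 7 rose and 0 fell (41.2% called, against 3.98% of all tested genes). Of the differences 16 were positive, as were 5282 of all 10167 tested. The median was 0.36, with 0.35 in the CD34 pair and 0.37 in the Mts24 pair. Slc16a3, the lactate exporter, read 9.72 and 9.58 in K14Snail cells, against 8.95 and 8.36 in wild type cells (0.99 ± 0.12, limma adjusted p = 0.00415). Egln3, a prolyl hydroxylase induced by low oxygen, rose by 0.73 ± 0.09, Vegfa, the endothelial growth factor, by 0.71 ± 0.09, Bnip3, which acts in the removal of mitochondria, by 0.66 ± 0.12, and the glycolytic enzymes Pkm, Pgk1 and Hk2 by 0.64 ± 0.10, 0.59 ± 0.10 and 0.46 ± 0.09. The glucose transporter Slc2a1 (0.36) and Ldha (0.21) did not pass.

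**Figure D4:**
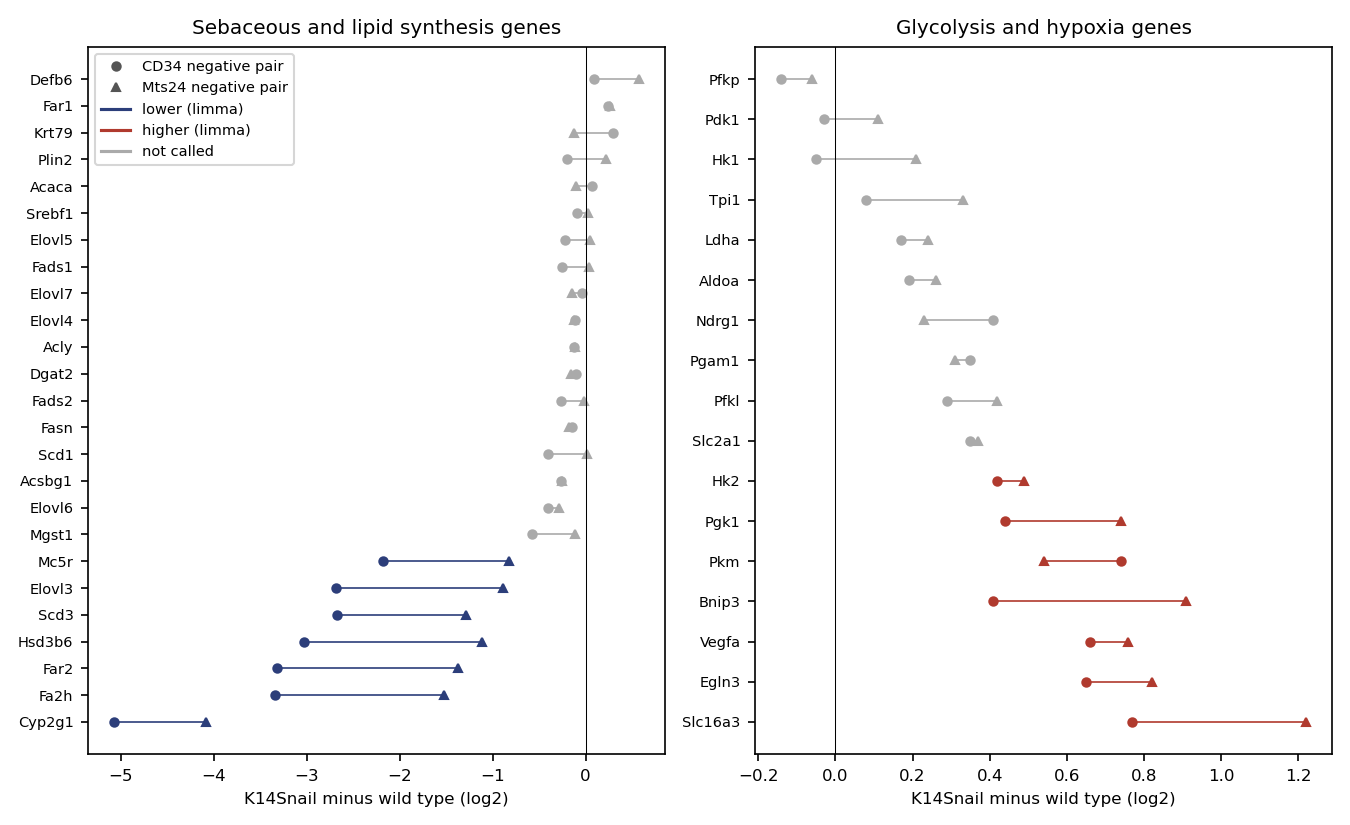
Rows are the tested genes of the sebaceous and lipid list (left) and of the glycolysis and hypoxia list (right); symbols give the K14Snail minus wild type difference (log2) in the CD34 negative and in the Mts24 negative pair. The 7 called sebaceous genes lie far left with the CD34 pair farther out, while both pairs of the 7 called glycolysis and hypoxia genes lie right of 0; the panels have different scales.

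In receptor and signalling pathways the called shares rest on few genes each. They were 15.4% for the epidermal growth factor receptor pathway and 12.5% each for the bone morphogenetic protein and TGF-β, Wnt and Hedgehog pathways. Among clock genes the share was 13.3% and among Notch genes 0%, against 3.98% of all tested genes. Of 13 tested genes of the epidermal growth factor receptor pathway the ligands Epgn, epigen (-1.05 ± 0.09, limma adjusted p = 9.62e-04), and Btc, betacellulin (-0.65 ± 0.12), fell, while Hbegf had 1.30 in the CD34 pair and -0.04 in the Mts24 pair and did not pass; Egfr itself had 0.00. Of 24 genes of the bone morphogenetic protein and TGF-β pathway the ligand Bmp2 fell (-0.46 ± 0.10) and the target genes Id1 (0.44 ± 0.09) and Id3 (0.46 ± 0.10) rose. Of 24 Wnt pathway genes the ligand Wnt3 (-0.43 ± 0.09), the receptor Fzd3 (-0.53 ± 0.09) and the feedback inhibitor Nkd2 (-0.63 ± 0.09) fell. Of 8 Hedgehog pathway genes Gli3 rose by 0.51 ± 0.10, and of 15 Notch genes 0 passed in limma, with 3 at an unadjusted p under 0.05. Of 15 clock genes Bhlhe40 (0.76 ± 0.11) and Dbp (0.59 ± 0.12) rose.

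Of 23 genes of drug and retinoid metabolism Cyp2g1 and the alcohol dehydrogenases Adh6b (-1.19 ± 0.09) and Adh1 (-0.56 ± 0.09) fell. Stra6, the retinol transporter, had 2.25 in the CD34 pair and 0.31 in the Mts24 pair and did not pass (limma adjusted p = 0.102). Mt4, the metallothionein of squamous epithelium, fell by 1.03 with an SE of 0.10, and Nqo1, an antioxidant enzyme, rose by 0.57 ± 0.10. Of 32 cell cycle genes 0 passed in limma and 30 differences were positive; 7 (21.9%) had an unadjusted p under 0.05, against 15.5% of all tested genes. Their median was 0.01 in the CD34 pair and 0.38 in the Mts24 pair, so the shift lay in 1 pair. The median of 19 immediate early genes likewise was 0.42 in the CD34 pair and -0.09 in the Mts24 pair, and 0 passed in limma, with 2 at an unadjusted p under 0.05. Among 17 p53 targets, 14 DNA repair genes and 19 heat shock and unfolded protein genes 0 passed in limma, with 2, 2 and 1 at an unadjusted p under 0.05.

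**Figure D5:**
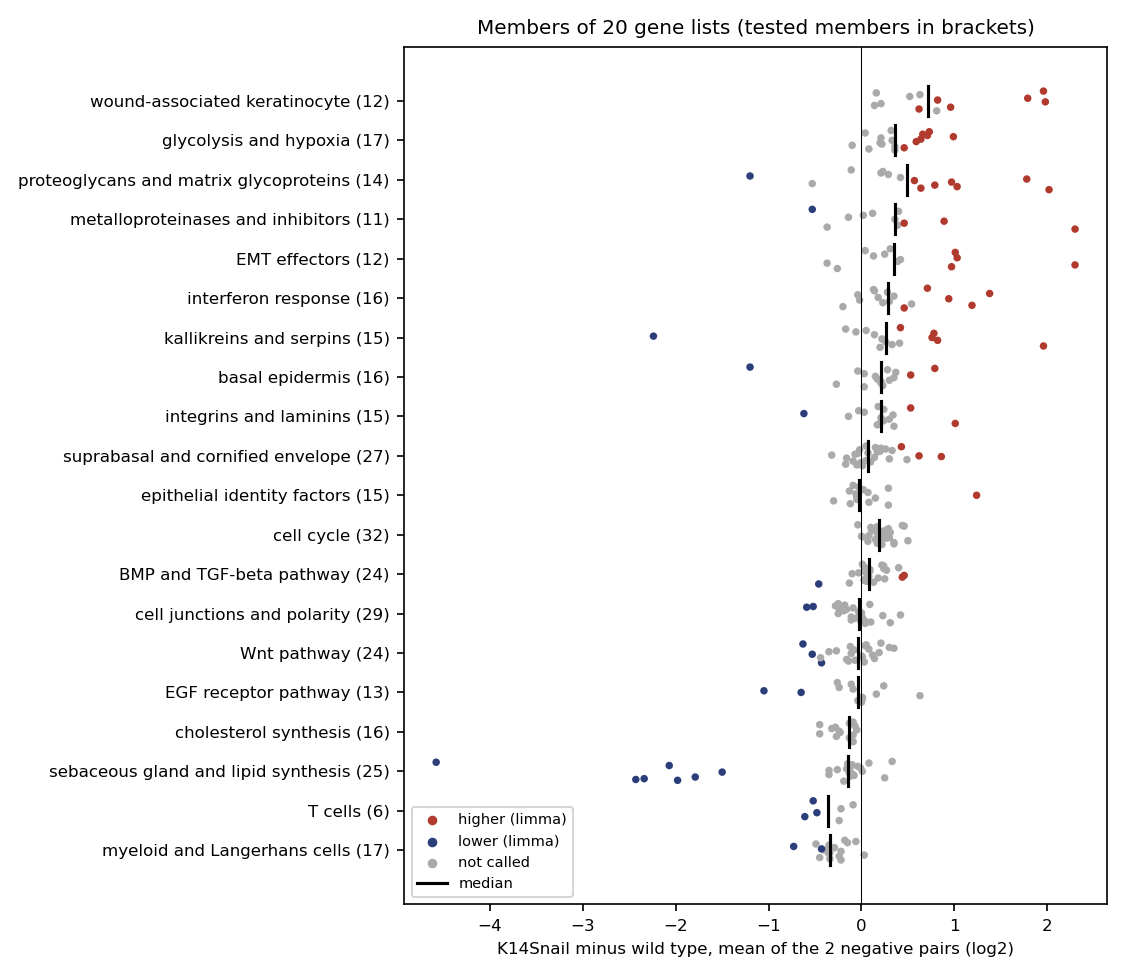
Each row is a gene list with its number of tested members in brackets, each point 1 member's K14Snail minus wild type difference (log2, mean of the negative pairs), coloured by the limma call, and each bar the list's median. Called members lie only right of 0 in lists such as the wound-associated, glycolysis, transition effector and interferon lists. They lie only left of 0 in lists such as the sebaceous, T cell and myeloid lists. The medians run from -0.36 for T cells to 0.72 for the wound-associated list, with -0.15 for the sebaceous list.

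Markers of other cell types moved with these differences and their part in them was not tested. T cell genes were well detected in these fractions: Cd3g read 11.18 and 11.47 in K14Snail cells, against 11.61 and 12.00 in wild type cells. Of 12 T cell markers 8 are on the array and 6 were tested, of which Cd3e (-0.61 ± 0.09), Cd7 (-0.52 ± 0.09) and Cd3g (-0.48 ± 0.09) fell and all 6 differences were negative. The markers' summed linear level was 8891 and 11388 in K14Snail cells, against 12225 and 15633 in wild type cells, with Cd28 the lowest at 5.51 and 5.46 in K14Snail cells, against 5.29 and 5.48 in wild type cells. Of 17 tested myeloid and Langerhans cell markers 16 were negative and Fcer1g (-0.73 ± 0.09) and Laptm5 (-0.43 ± 0.09) fell; their summed level was 13941 and 20601 in K14Snail cells, against 20187 and 22331 in wild type cells. Cd207, which encodes langerin, had -0.22 and did not pass.

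Connective tissue markers were low. The 12 fibroblast markers summed to 3418 and 3573 in K14Snail cells, against 3351 and 3532 in wild type cells; 5 were tested, of which Fbln1 rose and Dpp4 (-0.73 ± 0.11) fell, and Lum was the lowest, at 3.72 and 3.75 in K14Snail cells, against 3.89 and 3.82 in wild type cells. The 10 endothelial markers all lay under 7.67 in all 4 arrays and summed to 974 and 954 in K14Snail cells, against 945 and 1041 in wild type cells. The 10 keratinocyte markers summed to 96073 and 92790 in K14Snail cells, against 97534 and 88401 in wild type cells. Of the 10 pericyte and smooth muscle markers 3 were tested, of which Cspg4 rose (0.65 ± 0.09) and 2 did not pass, the lowest at -0.33. These markers summed to 2653 and 2620 in K14Snail cells, against 2545 and 2633 in wild type cells. Of the Y-linked transcripts, Uty was higher by 0.76 ± 0.14 and Eif2s3y by 0.72 ± 0.12 in K14Snail cells. Kdm5d, too low to be tested, had 0.87 in the CD34 pair and -0.21 in the Mts24 pair. The X-linked Xist had -0.12, and the sex make-up of the pools cannot be told apart from genotype.

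The CD34 positive and Mts24 positive arrays give further values for the genes called here; whether they hold cells of the same mice as the negative arrays is not stated in the labels. Of all tested genes, 4120 (40.5%) were higher in K14Snail cells in both positive pairs and 2733 (26.9%) lower in both, and in 1034 (10.2%) both negative pairs lay on one side of 0 and both positive pairs on the other. Of the 223 genes called higher, 150 were also higher in K14Snail cells in both positive pairs and 24 lower in both; of the 182 called lower, 121 were lower in both positive pairs and 20 higher in both. Bgn (2.79 and 2.82 in the CD34 and Mts24 positive pairs), Aff2 (1.61 and 1.73), Ehf (1.32 and 1.25) and Sprr1b (1.44 and 1.59) were also higher in both. Snai2 differed by -0.68 and -1.23 there, and Mmp2 had -0.48 and 0.89. The difference between the positive and the negative effect was 1.74 for Snai2 (limma adjusted p = 0.129) and -2.10 for Mmp2 (limma adjusted p = 0.241), and neither passed. Over all tested genes 0 passed that test in limma, with 967 at an unadjusted p under 0.05 and a smallest adjusted p of 0.0641.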

How the data were processed

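RNA from 4 pools of negative-fraction cells, and 4 of positive-fraction cells, was measured on 8 arrays, 1 per group. The authors deposited 1 log2 value per probe set and array. Per the submitters' processing notes these come from RMA, which corrects background, normalizes and summarizes probes. Neither the RMA version nor a genome build is stated in the labels. The values span 3.04 to 14.49. Array medians of the negative fractions were 7.32 to 7.37. Of 28874 probe sets 21789 have 1 gene symbol in the platform annotation, 1621 several and 5464 none; only the first kind was used, and 21698 matched RefSeq by Entrez identifier, with 0 symbols changed. For 999 genes with several probe sets the one with the highest mean was used. The filter level, 7.67, is the median over the 19938 genes in the 4 arrays.

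Genotype was tested with limma 3.58.1 (R 4.3.3, statmod 1.5.0) in a model with sorting marker and genotype, which left 1 residual and 7.16 prior degrees of freedom; p-values were adjusted by Benjamini and Hochberg. The pairing comes from the sorting marker, and deviations of the markers from the genotype means correlated at 0.70 between the genotypes. The difference between positive and negative effects was fitted over all 8 arrays. The method was tested on simulated data. Tables and plots used Python 3.11.15, pandas 2.3.3, numpy 2.4.6 and matplotlib 3.10.9. Named genes are Snai1, Snai2, Krt14, Cd34 and Plet1, the 15 highest and 15 lowest called genes, called or leading list members, and genes whose pairs or fractions disagree most; others are stated as picked after their values were seen. Members, lists and comparisons were chosen with earlier results of these data known. The number of arrays limits the precision. Alternatives changed the filter, normalization, probe set rule, spread model and arrays used.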

Additional observations from a re-analysis of the deposited data

Results flagged for a closer look

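In 19 of the genes named here both negative pairs lay on one side of 0 and both positive pairs on the other. So did 10.2% of all tested genes, and the share among all named genes was not counted. The medians of 7 lists did likewise, which is not comparable with a share of genes. The value in each case is the K14Snail effect in the positive fractions minus that in the negative fractions (log2), and no gene passed limma's test of that difference. Vim, Cd74, H2-Aa, H2-M2, Cd53 and Serpina12 were among the genes named for the size of this difference, so their pattern is no separate result. Vim was higher in K14Snail cells by 1.46 and 1.61 in the CD34 and Mts24 positive pairs, with -0.28 and -0.24 in the negative pairs, a difference of 1.80 (adjusted p = 0.0641). Cd74, the invariant chain of class II antigen presentation, differed by 2.22 (adjusted p = 0.106), with 1.83 and 1.94 in the positive and -0.61 and -0.06 in the negative pairs. The class II gene H2-Aa differed by 1.81 (adjusted p = 0.139), H2-M2 by 1.98 (adjusted p = 0.144), the leukocyte antigen Cd53 by 1.90 (adjusted p = 0.0951) and Laptm5 by 1.72 (adjusted p = 0.0641). Cd207 had 1.30, Fcer1g 1.01, Cd3g 0.79, Xist 0.28 and Acly 0.19, with adjusted p-values from 0.129 to 0.681. Serpina12, a serine protease inhibitor, ran the opposite way, at -1.87 (adjusted p = 0.0641). So did Tns1 (-0.99), Thbs1 (-0.89), Bnip3 (-0.84), Id3 (-0.75), Cd34 (-0.73), Lamb3 (-0.65) and Mmp28 (-0.63), with adjusted p-values from 0.129 to 0.294. The differences between the lists' medians were not tested. The median of the 17 myeloid and Langerhans cell markers was 1.25 and 1.24 in the CD34 and Mts24 positive pairs and -0.52 and -0.09 in the negative pairs, a difference of 1.55. The others differed by -0.55 for suprabasal and cornified envelope genes, -0.47 for proteoglycans and matrix glycoproteins, -0.35 for bulge stem cell genes, -0.33 for basal epidermis, -0.25 for keratinocyte markers and 0.08 for heat shock and unfolded protein genes.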

How the results depend on the processing

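The 405 calls were 312 with no filter, 326 with the filter over all 8 arrays, 355 after quantile normalization, 274 after median centring, 402 with the mean over probe sets, 577 with a trend in the prior and 360 with a robust prior. The count turned on the spread: the fit with no replicate block, that is, without the pairing by marker, called 1 gene (393 at an unadjusted p under 0.05). The fit over all 8 arrays called 12 genes, all among the 405 (973 unadjusted), and also 12 with the pool as a random block (923 unadjusted). Leaving out each negative array in turn, in a limma fit of the other 7 arrays where the lone array is taken to vary like the rest, called 0 genes in each of the 4 fits (392 to 399 unadjusted). The 37 genes at least 2-fold apart in both pairs were 36 to 41 under other filters and scalings, 24 when the closest arrays of the genotypes were compared, 139 at 1.5-fold, 82 in the CD34 pair alone and 70 in the Mts24 pair alone. The difference between positive and negative effects gave 0 calls, 0 with the pool block (764 unadjusted) and 1 with no filter, Lyz2. No alternative turned the direction of a called gene named here, but most could not have done so. The fits with other filters, priors and spreads keep the same mean difference. Those without 1 array rest on the other pair, whose sign is the same in all 405 genes. Only the scalings and the mean over probe sets could have turned a direction. Of the 100 genes named by rule and called, 99 lost the call with no replicate block, 92 with all 8 arrays and all 100 without any 1 negative array. The E-box alternatives were chosen after seeing the data. Sizes for genes under 7.67 in 1 genotype are uncertain, since the files hold no measure of background.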

Other observations

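Of the 405 called genes, 26 lay under 7.67 in both K14Snail arrays and 28 in both wild type arrays. Each of these entered the test only through the arrays of the other genotype. Of the 21 called genes with several probe sets, 1, Tns1, had probe sets of opposite sign.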
